A study of Mus musculus with 4 samples.

Results

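Oxytocin and vasopressin nuclei were selected from single-nucleus RNA counts of mouse arcuate nucleus (ARC) punches by the hormone transcripts they held. A nucleus was taken as an Oxt/Avp nucleus when Oxt plus Avp made up at least 1% of its unique molecular identifiers (UMIs, the counted RNA molecules) and at least 20 UMIs. It also had to have fewer than 2 of 6 suprachiasmatic genes detected (Rgs16, Vipr2, Prok2, Prokr2, Syt10 and Nms) and to hold under 0.5% of its UMIs as Hcrt, the orexin precursor. This rule found 253 of 39176 nuclei (0.646%). All 4 libraries came from male wildtype C57BL/6J mice that were 10 weeks old, and each library pooled the nuclei of 2 mice. The paper calls the punches bilateral and lists 2 per mouse, but 1 for 1 mouse each of DOCA-salt 2 and Sham 2. Libraries DOCA-salt 1 and DOCA-salt 2 came from mice given deoxycorticosterone acetate (DOCA) as an implant together with salt to drink for 3 weeks, and libraries Sham 1 and Sham 2 came from Sham mice of the same age. The pooling means that the 2 mice of a library could not be told apart, so that each comparison rested on libraries and not on mice.

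Magnocellular neurons are the large hypothalamic neurons of the paraventricular and supraoptic nuclei that make oxytocin or vasopressin and send axons to the posterior pituitary, where the hormones are released into blood. Oxytocin drives milk ejection and uterine contraction, and vasopressin drives water retention by the kidney and constricts vessels. Each hormone is cut from a precursor that also holds its carrier, a neurophysin, and the precursor is folded in the endoplasmic reticulum, packed into dense-core granules and cleaved there. The transcription factors SIM1, OTP and POU3F2 are needed for these neurons to form. Vasopressin is also made by a separate population of GABAergic neurons in the suprachiasmatic nucleus, the circadian clock of the brain.

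The hormones themselves are near-identical, which bears on how well reads of either gene can be told apart. The stretch of each transcript that encodes the hormone is shown 5′ to 3′ from the GENCODE M21 transcripts, with the bases that differ between the genes in capitals.
Oxt: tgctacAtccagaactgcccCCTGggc
Avp: tgctacTtccagaactgcccAAGAggc
These 27 bases (9 codons) lay in exon 1 of 3 of Oxt on chromosome 2 (GRCm38, chr2:130576267-130576293, plus strand) and in exon 1 of 3 of Avp (chr2:130582446-130582472, minus strand). They shared 22 bases and differed at 5, which were A7T, C21A, C22A, T23G and G24A, counted from 1 at the first base of the hormone with the Oxt base first. The 2 genes lie on opposite strands with 3565 bases between them. Their second exons, of 202 bases each, were the same at 193 positions (95.5%). The longest unbroken run that both transcripts shared was of 127 bases, from the end of exon 1 into exon 2. Their last exons, of 178 and 230 bases, shared no run over 8 bases, and the kit used here reads from the 3′ end of transcripts. Whether reads that match both genes moved counts between them cannot be seen from the deposited counts.

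The libraries held these nuclei very unevenly. The deposited files held 45126915 UMIs in 10765 barcodes for DOCA-salt 1, 79437196 in 19754 for DOCA-salt 2, 53257230 in 2805 for Sham 1 and 59293582 in 8325 for Sham 2. After removal of nuclei with few or very many genes, many UMIs or many mitochondrial UMIs, 10307, 18907, 2203 and 7759 nuclei remained in the same order. DOCA-salt 1 had 3 Oxt/Avp nuclei, DOCA-salt 2 had 175, Sham 1 had 7 and Sham 2 had 68. As shares of the nuclei kept these were 0.0291%, 0.926%, 0.318% and 0.876%, and 1, 128, 6 and 50 of them were neurons by the mark used here (2 or more UMIs of Snap25 plus Syt1). The spread within each treatment was thus as wide as that between treatments, and DOCA-salt 2 alone supplied 69.2% of the nuclei. The libraries also differed in the nuclei that held enough Oxt plus Avp but were past the suprachiasmatic limit, with 118 in DOCA-salt 2 (1 of them past the Hcrt limit as well), 4 in Sham 2, 1 in Sham 1 and 0 in DOCA-salt 1. Pmch, the melanin-concentrating hormone precursor of lateral hypothalamic neurons, stood at 2903 counts per 1e6 UMIs (CPM) in the other neurons of DOCA-salt 2, 44.0 in Sham 1 and 31.3 in Sham 2. Whether punches that reached neighboring nuclei set the number of Oxt/Avp nuclei was not tested.

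Other checks on the nuclei gave the following. Between 5 and 49 cell barcodes were shared by a pair of libraries, and 0 of those were Oxt/Avp nuclei in both. A total of 68 Oxt/Avp nuclei did not reach 2 UMIs of Snap25 plus Syt1, of which 47 were in DOCA-salt 2, where their median was 1324 UMIs. Of the 253 nuclei, 35 were among those with the highest doublet scores, 31 of them in DOCA-salt 2. Just inside the gate, 25 nuclei had 1 to 1.25% of their UMIs as Oxt plus Avp, and just outside it 32 had 0.75 to 1%. A gate at 0.5% would have held 310 nuclei, at 2% 169 and at 5% 73, and without the suprachiasmatic limit it would have held 375. The hormones were also counted in nuclei of another class, and whether as free RNA or through doublets was not tested. Oligodendrocytes (nuclei that were not neurons by Snap25 plus Syt1, with 2 or more UMIs of Mog, Mag and Cldn11) had Oxt at 250.3 CPM (DOCA-salt 2), 59.3 CPM (Sham 1, where it was 1 UMI in 7 oligodendrocytes) and 151 CPM (Sham 2). The oligodendrocyte with the highest share of Avp had 2.41% of its UMIs as Avp, past the 1% of the gate, and it was kept out by the other limits.

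Oxt and Avp were largely held by different nuclei. With a type set by the share of Oxt among Oxt plus Avp UMIs, 120 nuclei were oxytocin-type (80% or more), 120 were vasopressin-type (20% or less) and 13 were mixed. DOCA-salt 2 held 74 oxytocin-type, 96 vasopressin-type and 5 mixed nuclei, and Sham 2 held 39, 22 and 7. All 7 nuclei of Sham 1 were oxytocin-type, and DOCA-salt 1 held 2 vasopressin-type nuclei and 1 mixed nucleus. The oxytocin-type share of the nuclei was 42.3% in DOCA-salt 2 (95% exact binomial interval 34.9 to 50.0%) and 0%, 100% and 57.4% in DOCA-salt 1, Sham 1 and Sham 2. Its mean was 21.1% in the DOCA-salt libraries and 78.7% in the Sham libraries, and the 2 treatments did not overlap. The 0% rested on 3 nuclei (0 to 70.8%) and the 100% on 7 (59.0 to 100%), and with a gate of 5% the treatments overlapped, at 78.8% in DOCA-salt 2 and 100% and 77.8% in the Sham libraries. The difference was -57.5 percentage points, and -10.0 points with the 5% gate. It is given with no test, since the types rest on the UMIs that chose the nuclei and an exact permutation of 2 libraries against 2 cannot go below p = 0.333.

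**Figure D1:**
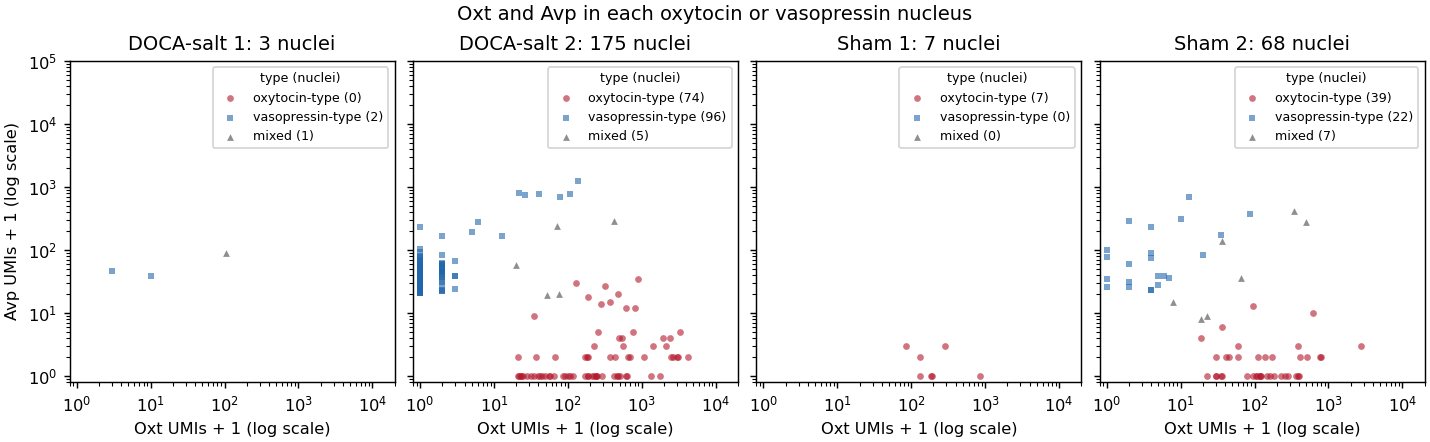
Each point is an Oxt/Avp nucleus, with its Oxt UMIs plus 1 on the x axis and its Avp UMIs plus 1 on the y axis (both log scales), in 1 panel per library and colored by type. Oxytocin-type and vasopressin-type nuclei lie along separate axes, and 13 mixed nuclei lie between them.

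The hormone levels chose these nuclei, so they are given as a description with no test. In oxytocin-type nuclei, Oxt ranged from 20 to 4191 UMIs per nucleus in DOCA-salt 2 (median 244), from 85 to 861 in Sham 1 (median 187) and from 18 to 2721 in Sham 2 (median 119). Oxt made up 9.23%, 5.34% and 5.28% of all UMIs of these nuclei in the same order. The ranges of all 3 libraries overlapped. In vasopressin-type nuclei, Avp ranged from 20 to 1256 UMIs in DOCA-salt 2 (median 38.5) and from 22 to 684 in Sham 2 (median 65.5), which was 3.55% and 3.16% of their UMIs. The ranges of both libraries overlapped for Avp too. The Oxt/Avp nuclei held 75.6% of the Oxt UMIs of DOCA-salt 2 and 69.1% of those of Sham 2, but 29.5% and 49.2% of the Avp UMIs, and in Sham 1 they held 49.3% of Oxt and 0.294% of Avp.

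The label of magnocellular-type neurons was checked by Sim1 and Otp, which the gate did not use. Levels are CPM over the UMIs outside the 9 gate genes, where 1 UMI in the 7 nuclei of Sham 1 was worth 30.2 CPM. Sim1 stood at 115 CPM in the Oxt/Avp nuclei of DOCA-salt 2, 30.2 in Sham 1 and 86.6 in Sham 2, against 20.7, 20.05 and 9.20 in other neurons of these libraries. Otp stood at 285, 30.2 and 135 CPM against 71.6, 61.0 and 62.5. The Oxt/Avp nuclei were above other neurons for both genes in DOCA-salt 2 and Sham 2, and Sham 1 gave no direction, with 1 UMI of each. Sim1 or Otp was detected in 65 of the 120 oxytocin-type nuclei (54.2%) and in 26 of the 120 vasopressin-type nuclei (21.7%), but the order turned between libraries, with 68.9% against 14.6% in DOCA-salt 2 and 33.3% against 54.5% in Sham 2.

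Detection depends on depth, so nuclei were also thinned to 1000 UMIs each. In DOCA-salt 2, Sim1 or Otp was then seen in 35.6% of 59 oxytocin-type nuclei (95% exact binomial interval 23.6 to 49.1%) and in 8.79% of 91 vasopressin-type nuclei (3.87 to 16.6%), against 7.20% of other neurons and 6.61% of oligodendrocytes. Without thinning these shares were 68.9%, 14.6%, 18.7% and 5.90%. In Sham 2 the thinned shares were 15.2% of 33 oxytocin-type nuclei (5.11 to 31.9%) and 26.3% of 19 vasopressin-type nuclei (9.15 to 51.2%), against 6.40% of other neurons and 3.26% of oligodendrocytes. The vasopressin-type share in DOCA-salt 2 was thus within counting error of that in oligodendrocytes, a cell type that should lack both factors. The summed vasopressin-type nuclei of DOCA-salt 2 held Sim1 at 93.0 CPM (24 UMIs; 95% Poisson interval 59.6 to 138) and Otp at 147 CPM (38 UMIs; 104 to 202), against 5.86 and 46.9 CPM in oligodendrocytes. Both intervals, which cover counting error only, lay above the levels in oligodendrocytes. All of these UMIs were in the 14 of the 96 nuclei where either gene was detected, which follows from what detection means. The part of free RNA in them was not tested. SIM1 and OTP also mark smaller, parvocellular neurons, and size cannot be read from nuclei. Of 2 magnocellular markers neither passed against other neurons in edgeR, or in DESeq2, with log2 fold changes of -0.21 ± 0.14 for Calb1 (edgeR adjusted p = 0.725) and 0.66 ± 0.31 for Kcnmb4 (edgeR adjusted p = 0.463), which had an unadjusted p under 0.05. Kcnmb4 did pass (1.14 ± 0.34; edgeR adjusted p = 0.0336) when only the Oxt/Avp nuclei with Sim1 or Otp were set against other neurons that held Sim1. Of 2 markers of parvocellular oxytocin neurons Reln was higher (0.86 ± 0.24; edgeR adjusted p = 0.0339) and Cnr1 did not pass (-0.44 ± 0.18; edgeR adjusted p = 0.319). The nuclei are named by their hormones here, since these markers did not settle the label.

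The vasopressin-type nuclei of DOCA-salt 2 were split by whether Sim1 or Otp was detected. Hormone levels chose these nuclei, so they are given as a description with no test. The 14 nuclei with either factor held 37 to 1256 Avp UMIs (median 250.5), or 6.46% of their UMIs, and supplied 65.0% of the Avp of all vasopressin-type nuclei in the library. The 82 nuclei with neither held 20 to 103 Avp UMIs (median 37), or 1.93% of their UMIs. Depth differed as well, with medians of 6186.5 and 1873 UMIs, so some nuclei with neither may have missed these factors for lack of depth. In Sham 2 the 12 nuclei with either factor held 22 to 684 Avp UMIs (median 136) and the 10 with neither held 22 to 75 (median 32). Avp made up 3.42% and 2.14% of their UMIs, a narrower gap than in DOCA-salt 2, and their median depths were 3929.5 and 1760.5 UMIs. The oxytocin-type nuclei of DOCA-salt 2 had a median of 457 Oxt UMIs in the 51 with Sim1 or Otp and 65 in the 23 with neither. Their median depths were 7236 and 1261 UMIs, and Oxt made up 9.55% and 6.87% of their UMIs, so that the shares lay closer together than the UMIs.

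Other genes followed the split in DOCA-salt 2, which is given as levels within 1 library with no test. Pou3f2, the third lineage factor, stood at 269 CPM in the nuclei with Sim1 or Otp (95% Poisson interval 172 to 401) and at 11.8 CPM in those with neither (1.43 to 42.8). Caprin2, an RNA-binding protein known to bind vasopressin mRNA, stood at 393 CPM (273 to 546) and 17.8 CPM (3.67 to 51.9). Pdyn, the precursor of dynorphin that magnocellular vasopressin neurons release with the hormone, stood at 224 and 17.8 CPM. All 3 stood higher in the nuclei that had Sim1 or Otp, and the intervals of Pou3f2 and of Caprin2 did not overlap. The opposite order was seen for Rora and Rorb, nuclear receptors of the circadian system, at 112 and 213 CPM with Sim1 or Otp and 1037 and 912 CPM without. Dlk1, a transmembrane protein of the Notch ligand family, stood at 482 and 2388 CPM, and Gad1, which makes GABA, stood at 146 and 557 CPM. The 118 nuclei that the suprachiasmatic limit had left out of this library stood at 975 CPM for Rora, 1265 for Rorb, 2169.9 for Dlk1, 651 for Gad1 and 19.5 for Pou3f2. On these genes the 82 nuclei with neither factor stood closer to the left-out nuclei than to the other vasopressin-type nuclei. This describes chosen genes and is no test of likeness. Rora and Dlk1 were named for their large difference between oxytocin-type and vasopressin-type nuclei (below). In that comparison these 82 nuclei were most of the vasopressin-type nuclei of DOCA-salt 2. Rorb was named after its values were seen. In Sham 2 the levels with and without Sim1 or Otp were 73.2 and 568 CPM for Rora, 513 and 1420.4 for Dlk1 and 483 and 56.8 for Caprin2, in the same order as in DOCA-salt 2, while Pou3f2 stood at 293 and 227 CPM over only 12 and 10 nuclei. Gad1 did not show the gap of DOCA-salt 2 there. It stood at 146 CPM (10 UMIs) with Sim1 or Otp and at 151 CPM (13 UMIs) over all vasopressin-type nuclei of Sham 2.

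**Figure D2:**
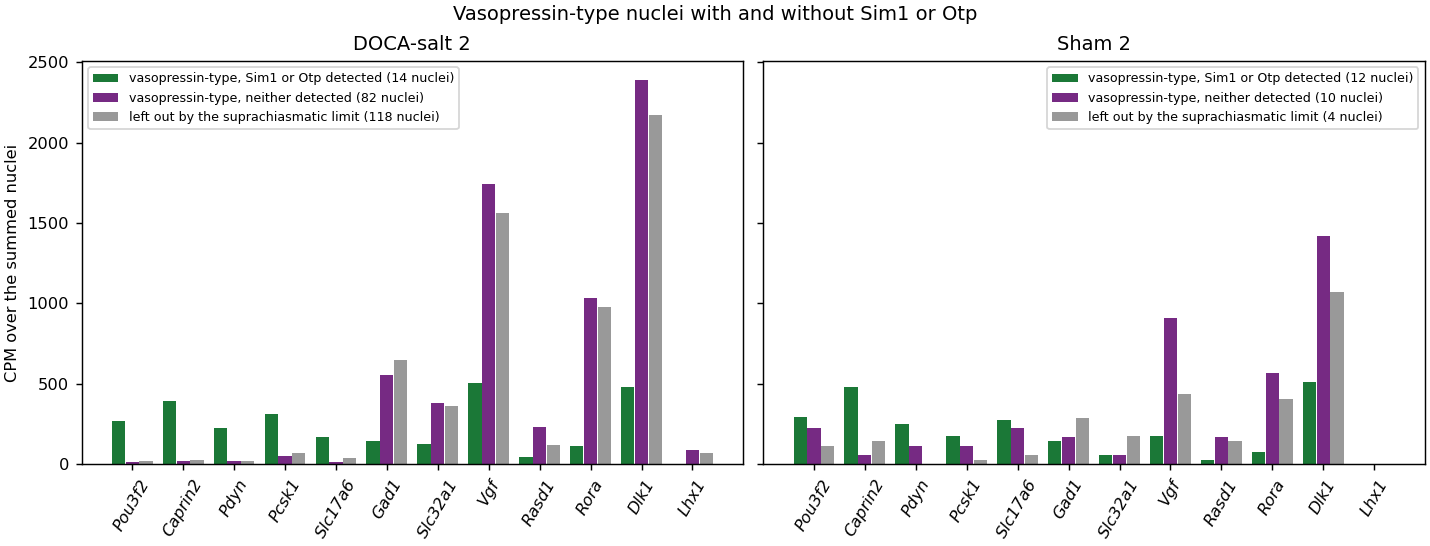
Bars give the CPM of 12 genes over the summed vasopressin-type nuclei with Sim1 or Otp detected (green), those with neither (purple) and the nuclei left out by the suprachiasmatic limit (gray), in DOCA-salt 2 (14, 82 and 118 nuclei) and Sham 2 (12, 10 and 4 nuclei). In DOCA-salt 2 Rora and Dlk1 are high in purple (1037 and 2388 CPM) and gray and low in green, and Caprin2, Pou3f2 and Pdyn are high only in green.

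To find what set these nuclei apart, summed counts of the Oxt/Avp nuclei were compared with those of the other neurons of the same library, over DOCA-salt 2, Sham 1 and Sham 2, with the library as a block. DOCA-salt 1 was left out because it had only 3 such nuclei. Of 14319 genes tested by edgeR's quasi-likelihood test, 187 passed a Benjamini-Hochberg adjusted p of 0.05 (1.31%), with 99 higher (0.691%) and 88 lower (0.615%). The median log2 fold change of all tested genes was -0.05. The lineage factors Sim1, Pou3f2 and Otp and the prohormone convertase Pcsk1 were among the higher genes, and Pmch, Cartpt, Gad1 and Gad2 were among the lower ones.

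Of the 6 lineage factors, 3 were higher and 0 lower, with a median log2 fold change of 1.11. Sim1 (ENSMUSG00000019913, chromosome 10, 50894754 to 50989152) was higher by 2.61 ± 0.24 (log2 fold change ± SE, 3 libraries; edgeR adjusted p = 1.44e-24). Pou3f2 (ENSMUSG00000095139, chromosome 4, 22482780 to 22488366) stood at 140.4, 60.5 and 202 CPM in the Oxt/Avp nuclei of DOCA-salt 2, Sham 1 and Sham 2, against 40.8, 44.4 and 35.1 in other neurons, a log2 fold change of 2.00 ± 0.18 (edgeR adjusted p = 1.01e-25). Its level was above that of other neurons in each library, although in Sham 1 on 2 UMIs. Otp (ENSMUSG00000021685, chromosome 13, 94875602 to 94885130) was higher by 1.62 ± 0.15 (edgeR adjusted p = 2.3e-22). Arnt2, the dimer partner of SIM1, had a log2 fold change of 0.48 ± 0.17 and did not pass (edgeR adjusted p = 0.19). All coordinates are on GRCm38 with the GENCODE M21 annotation.

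**Figure D3:**
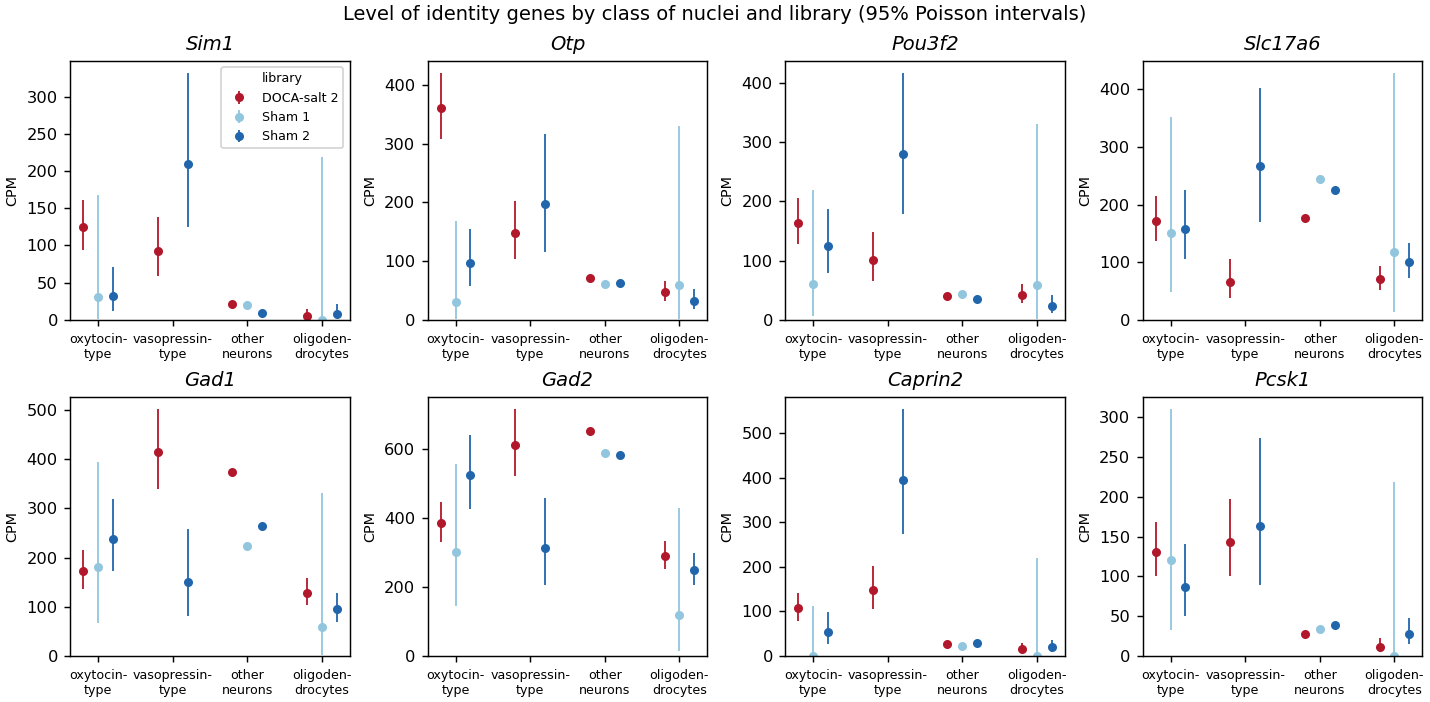
Points give the CPM of 8 genes in oxytocin-type and vasopressin-type nuclei, other neurons and oligodendrocytes of DOCA-salt 2, Sham 1 and Sham 2, with 95% Poisson intervals that cover counting error only (Sham 1 had no vasopressin-type nucleus). Pcsk1 and Caprin2 stand higher in both types of DOCA-salt 2 and Sham 2 than in other neurons, while Sim1 and Otp in Sham 1 rest on 1 UMI each.

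Genes that make, fold and cleave the hormone precursors came next. Of 19 genes of prohormone processing and granules, 4 were higher and 0 lower, 10 had a fold change above 0 (52.6%, against 43.9% of all tested genes) and the median log2 fold change of the list was 0.00. Pcsk1 (ENSMUSG00000021587, chromosome 13, 75089826 to 75134861), the convertase that cleaves prohormones, stood at 134, 121 and 122 CPM in the Oxt/Avp nuclei and 28.1, 33.8 and 39.4 in other neurons of DOCA-salt 2, Sham 1 and Sham 2. The groups did not overlap, and the log2 fold change was 1.99 ± 0.19 (edgeR adjusted p = 2.36e-22). Pam, which adds the C-terminal amide that both hormones carry, was higher by 0.48 ± 0.13 (edgeR adjusted p = 0.0152). Ptprn, a protein of the granule membrane, was higher by 0.47 ± 0.12 (edgeR adjusted p = 0.0109). Vgf, a granin-like precursor, was higher by 0.79 ± 0.13 (edgeR adjusted p = 3.54e-07), but among the oxytocin-type nuclei alone its log2 fold change was -0.20, and its levels of 615, 181 and 192 CPM against 268, 188 and 176 showed a wide gap only in DOCA-salt 2.

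Of 17 genes of secretory load and the unfolded protein response, 3 were higher and 0 lower, 15 had a fold change above 0 (88.2%, against 43.9% of all tested genes) and the median was 0.37. All 5 microglia markers (median 0.55) and all 5 astrocyte markers (median 0.21) also had a fold change above 0 with none called by edgeR or DESeq2, and their part in this result was not tested. Creb3l2, a transcription factor of the secretory pathway, was higher by 1.56 ± 0.33 (edgeR adjusted p = 0.00039). Dnajb9, a co-chaperone of the endoplasmic reticulum, was higher by 0.98 ± 0.17 (edgeR adjusted p = 8.59e-06), with 156, 90.7 and 103 CPM against 72.5, 52.4 and 59.8. Manf was higher by 0.70 ± 0.17 (edgeR adjusted p = 0.00415). Hspa5, the main chaperone of the endoplasmic reticulum, stood above other neurons in 3 of 3 libraries (580.2, 605 and 577 CPM against 403, 454 and 473) but did not pass (edgeR adjusted p = 0.0798).

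**Figure D4:**
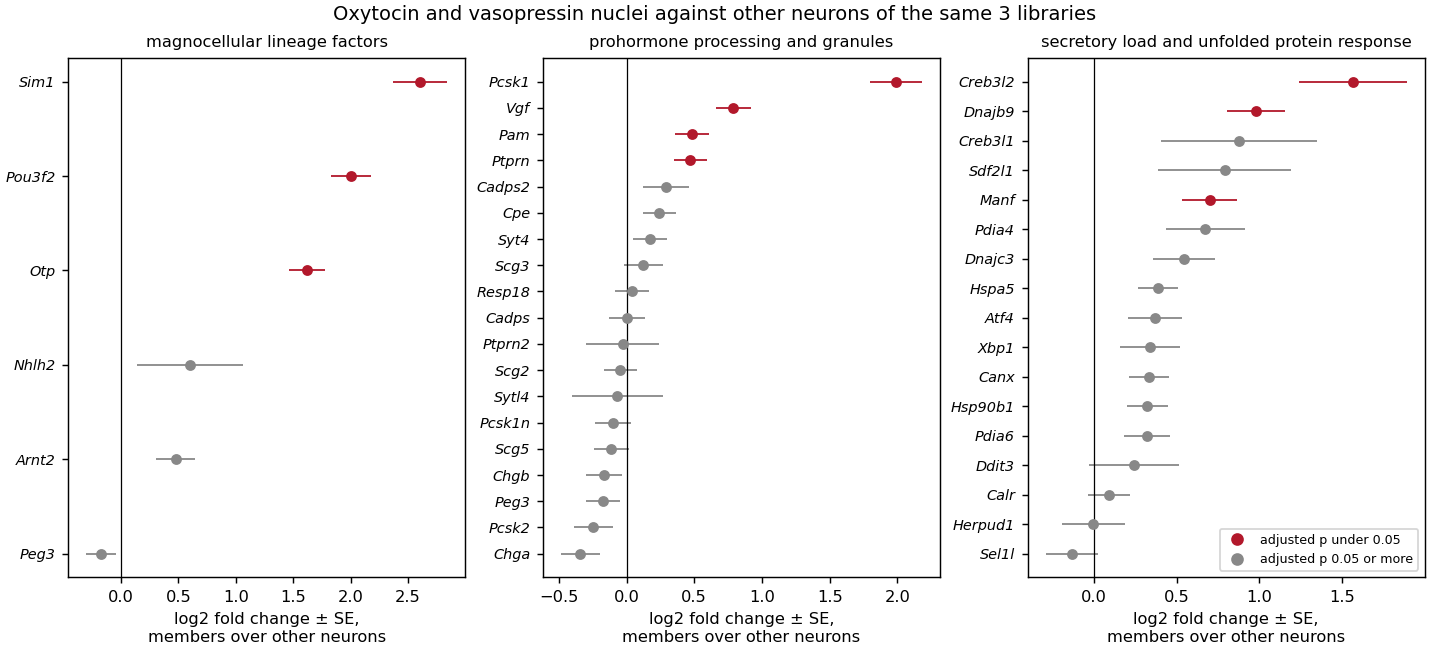
Points give the log2 fold change ± SE of each gene of 3 lists in Oxt/Avp nuclei (members) over other neurons of the same 3 libraries, red where the edgeR adjusted p was under 0.05. Sim1, Pou3f2 and Otp lead the lineage factors, Pcsk1 leads the processing genes, and 15 of the 17 genes of secretory load lie right of 0.

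Genes known to respond to salt or dehydration in magnocellular neurons were mixed. Of 15 listed, 14 were tested, with 3 higher and 1 lower. Caprin2 (ENSMUSG00000030309, chromosome 6, 148842492 to 148896237) stood at 122, 0 and 151 CPM in the Oxt/Avp nuclei of DOCA-salt 2, Sham 1 and Sham 2 against 26.0, 22.3 and 28.6 in other neurons, a log2 fold change of 2.22 ± 0.20 (edgeR adjusted p = 1.04e-24). The 0 of Sham 1 allows up to 90.7 CPM. Nos1, the neuronal nitric oxide synthase, was higher by 1.07 ± 0.21 (edgeR adjusted p = 0.000158). Rasd1, a small GTPase, was higher by 1.80 ± 0.29 (edgeR adjusted p = 3.06e-07), and in oxytocin-type nuclei alone its log2 fold change was -0.27. Slc12a5, the chloride exporter of mature neurons, was lower (log2 fold change -0.61 ± 0.14; edgeR adjusted p = 0.00224). It stood at 274, 363 and 189 CPM against 434, 357 and 283, so Sham 1 did not show the difference.

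Among transmitter and peptide genes, 2 of 3 GABAergic genes were lower and 0 higher. Gad2 was at 464, 302 and 427 CPM against 652, 589 and 583, a log2 fold change of -0.54 ± 0.13 (edgeR adjusted p = 0.00474), and Gad1 had -0.51 ± 0.14 (edgeR adjusted p = 0.0246). Neither was absent, and Gad1 stood at 415 CPM in vasopressin-type and 172 in oxytocin-type nuclei of DOCA-salt 2 and at 151 and 238 CPM in those of Sham 2. Slc17a6, the vesicular glutamate transporter, stood at 144, 151 and 186 CPM against 177, 245 and 225 and did not pass (edgeR adjusted p = 0.433). Of 15 peptides known to be released with oxytocin or vasopressin in some state, 1 was higher and 3 lower, with a median of -0.30. Pdyn was higher by 0.82 ± 0.20 (edgeR adjusted p = 0.0064). Cartpt, Nts and Tac1 had log2 fold changes of -1.50, -1.31 and -0.88. Of 7 tested genes of other hypothalamic peptide neurons, Th (1.49) and Agrp (0.93) were higher and Pmch (-1.95) and Tac2 (-1.11) lower. Agrp, however, was at 2.65 CPM (DOCA-salt 2), 60.5 CPM (Sham 1) and 167 CPM (Sham 2), and at 1.51, 52.3 and 82.5 in other neurons, so that it followed the library more than the class.

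Calls among receptors, channels, corticosteroid and activity genes are read beside the share of all tested genes, of which 0.691% were higher and 0.615% lower. Of 24 receptors, 19 were tested and 2 were higher, Avpr1a by 1.94 ± 0.50 (edgeR adjusted p = 0.0123), the vasopressin receptor that these neurons can use to sense their own hormone, and Rxfp3, the relaxin-3 receptor, by 2.00 ± 0.55 (edgeR adjusted p = 0.0264). Both were rare, with Avpr1a at 19.9, 0 and 6.42 CPM and Rxfp3 at 13.2, 30.2 and 6.42 CPM. Of 24 channels that shape firing, 1 was higher, Scn9a, a sodium channel, by 0.74 ± 0.15 (edgeR adjusted p = 0.000218), with 160.3, 151 and 225 CPM against 76.6, 111 and 170.3. The channel list had a median of -0.21. Of 11 corticosteroid receptors and targets, 7 were tested and Nr3c1, the glucocorticoid receptor, was lower (log2 fold change -0.69 ± 0.20; edgeR adjusted p = 0.0464). Nr3c2, the mineralocorticoid receptor through which DOCA acts, stood at 15.9, 0 and 19.2 CPM against 11.7, 21.1 and 16.1 and did not pass (edgeR adjusted p = 0.941). Of 8 activity genes, 1 was higher, Jun by 0.79 ± 0.21 (edgeR adjusted p = 0.0171). Most of the list went the other way. In it 2 genes had a fold change above 0 (25%, against 43.9% of all tested genes), and its median was -0.51.

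Beside Sim1, the largest rises among genes with a level above that of other neurons in each library were in rarer transcripts. In Sham 1, 1 UMI already stood above the level of each of these genes in other neurons, so that Sham 1 adds little to their direction. Ptger4, a prostaglandin E2 receptor, was higher by 3.75 ± 0.46 (edgeR adjusted p = 5.88e-13), with 8, 2 and 11 UMIs in all Oxt/Avp nuclei of DOCA-salt 2, Sham 1 and Sham 2, or 10.6, 60.5 and 35.3 CPM against 1.68, 0.946 and 1.15. The transcription factors Fezf2 (3.30), Ebf3 (2.63), Uncx (2.57) and Fosl2 (2.28), the secreted proteins Angptl2 (3.29) and Nog (2.25), and 9430037G07Rik (2.22) followed, each on 1 to 3 UMIs in Sham 1. Fign, a microtubule-severing ATPase named here after its values were seen, was higher by 2.57 ± 0.24 (edgeR adjusted p = 5.15e-23), with 103, 0 and 93.0 CPM against 18.3, 14.6 and 11.9. Among the genes that were lower, Htr1b, a serotonin receptor, stood at 6.62, 0 and 9.62 CPM against 35.3, 35.6 and 25.9, a log2 fold change of -2.17 ± 0.45 (edgeR adjusted p = 0.000388). A count of 0 in Sham 1 allows up to 90.7 CPM, so for this gene and the 4 that follow Sham 1 gives no direction. Gpr149, Dffb and Zfp385b followed with -2.89, -2.88 and -2.63, on at most 3 UMIs per library in the Oxt/Avp nuclei. Gm48551 had 0 UMIs in all 3 libraries against 8.78, 6.19 and 6.24 CPM in other neurons, where 0 allows up to 3.97, 90.7 and 9.62 CPM, so no fold is given.

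Markers of other cell types were read in the same comparison. Of all tested genes only 1.31% passed, so that lists this short would mostly hold 0 calls at that share. A count of 0 calls therefore says little about these cell types. None of the oligodendrocyte markers Mbp, Mog, Mag and Cldn11 passed in edgeR, nor did any of 5 astrocyte, 5 microglia, 5 endothelial and mural and 4 oligodendrocyte precursor markers, while 1 of 4 tanycyte and ependymal markers did (Ccdc153). Of the former markers, Cldn5 and Vtn had an unadjusted p under 0.05, and DESeq2 called 0. All 5 endothelial and mural markers had a fold change below 0 (median -0.64), unlike the microglia and astrocyte markers. Mbp, a myelin protein, stood at 352, 907 and 869 CPM in the Oxt/Avp nuclei and at 457, 661 and 675 in other neurons. None of the 6 suprachiasmatic markers outside the gate was called by edgeR or DESeq2 either (Grp alone had an unadjusted p under 0.05), with sums of 318, 393 and 308 CPM against 263, 406 and 396 and Zfhx3 the most abundant. Vip was at 0 in DOCA-salt 2 and Sham 1 and at 22.5 CPM in Sham 2. The suprachiasmatic markers outside the gate differed between subsets of the Oxt/Avp nuclei. In vasopressin-type nuclei alone 4 of the 6 had a fold change above 0 (median 0.50), with 0 called by edgeR. In the nuclei with Sim1 or Otp 2 of the 6 did (median -0.48), and edgeR called 1 lower.

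The number of calls leaned on the library and on the fit. Without DOCA-salt 2, 17 genes passed, and without Sham 2, 70, while without the library block 12 passed and with DESeq2 14 did. Sim1, Pou3f2, Caprin2 and Pcsk1 passed in the same direction in all 17 fits that were run, and the other genes named above lost their call in at least 1. For Sim1, 1 of these fits is no support, since it used only nuclei with Sim1 or Otp detected. Against the other neurons, the oxytocin-type nuclei alone gave 79 calls (0.556%; 0.324% higher and 0.232% lower) and the vasopressin-type nuclei alone 136 (0.906%, with 0.413% higher and 0.493% lower). Sim1 had log2 fold changes of 2.33 and 3.06 in these 2 fits, Pou3f2 1.83 and 1.97, Pcsk1 1.83 and 2.18, Caprin2 1.60 and 3.02 and Otp 1.73 and 1.21. Most vasopressin-type nuclei of DOCA-salt 2, 82 of 96, had neither Sim1 nor Otp and showed no rise of Pou3f2 or Caprin2 over other neurons. The vasopressin-type rise of these 2 genes in that library came from the 14 nuclei with Sim1 or Otp. Reln, a marker of parvocellular oxytocin neurons, was higher in oxytocin-type nuclei (1.22) and stood at -0.40 in vasopressin-type nuclei, where it did not pass (edgeR adjusted p = 0.969). The order of the types for Reln turned between libraries. It stood at 96.0 CPM in oxytocin-type and 3.88 in vasopressin-type nuclei of DOCA-salt 2, but at 37.9 and 81.5 in Sham 2. The fits of the 2 types share their other neurons, so they are given side by side only.

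The neurons most like them in lineage were glutamatergic neurons with Sim1, taken as other neurons with at least 1 UMI each of Sim1 and Slc17a6 (1211 nuclei in all 4 libraries). Their median depths were 6766, 12373 and 9466 UMIs in DOCA-salt 2, Sham 1 and Sham 2. The Oxt/Avp nuclei had 2326, 3938 and 3071.5, and the part of this gap in the result was not tested. The fit used the 700 Sim1 neurons of DOCA-salt 2, the 252 of Sham 1 and the 197 of Sham 2. Against these, 214 of 10932 genes passed in edgeR (1.96%), with 109 higher (0.997%) and 105 lower (0.96%). Trh, the thyrotropin-releasing hormone precursor made by parvocellular paraventricular neurons, was the most significant, at 109, 60.5 and 179.7 CPM in the Oxt/Avp nuclei of DOCA-salt 2, Sham 1 and Sham 2 against 844, 373 and 671 in Sim1 neurons (log2 fold change -2.51 ± 0.16; edgeR adjusted p = 1.53e-51). The 2 classes did not overlap for Trh. Cbln1, a synapse organizer, was lower too (-2.72 ± 0.22; edgeR adjusted p = 2.38e-30), as was Gm2694 (-2.74), which overlaps Cbln1 on the opposite strand of chromosome 8. The peptide precursors Tac1 (-1.37) and Adcyap1 (-1.34) and the synaptic protein Syt2 (-2.65) were lower, as were Zfp385b (-2.83), Steap2 (-2.10), Htr1b (-1.81) and Fezf1 (-1.74). Gm2694, Syt2, Zfp385b, Steap2, Htr1b and Fezf1 had 0 UMIs in Sham 1, which gave no direction for them.

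The genes higher than in Sim1 neurons included some of those above. Pcsk1 was higher by 2.04 ± 0.20 (edgeR adjusted p = 5.63e-20) and Caprin2 by 2.14 ± 0.21 (edgeR adjusted p = 5.98e-21). Pou3f2 was higher by 1.32 ± 0.18 (edgeR adjusted p = 6.37e-11), while Otp, at 0.24 ± 0.15, did not pass (edgeR adjusted p = 0.666). Rasd1 (2.74), Pdyn (1.26), Vgf (1.22), Pam (0.66), Ptprn (0.57) and Scn9a (1.09) were higher, and Pcsk2, the other main prohormone convertase, was lower (-0.60 ± 0.15; edgeR adjusted p = 0.00505). Of the 17 genes of secretory load, 5 were higher and 0 lower, with a median of 0.44 against -0.01 for all tested genes. The 5 were Hspa5 (0.46), Dnajb9 (1.04), Manf (0.75), Dnajc3 (0.70) and Creb3l2 (1.49). By size, Ptger4 (3.14), Fosl2 (2.46), Slc12a7 (2.41), Nog (2.38), 9430037G07Rik (2.39), Agrp (1.82) and the folding enzyme Fkbp11 (1.62) were among the highest, each on 1 to 3 UMIs in Sham 1. Cbln1, Trh, Pcsk1 and Fign passed in the same direction in all 14 fits of this comparison. Without DOCA-salt 2, 17 genes passed, and without Sham 2, 61.

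Oxytocin-type and vasopressin-type nuclei were compared within DOCA-salt 2 and Sham 2, the libraries with at least 5 of each. Of 5436 genes, 47 passed in edgeR (0.865%), with 15 higher in oxytocin-type (0.276%) and 32 higher in vasopressin-type nuclei (0.589%). Higher in the vasopressin type were Rasd1 (6.55 and 27.1 CPM in oxytocin-type against 167 and 58.2 CPM in vasopressin-type nuclei of DOCA-salt 2 and Sham 2; log2 fold change -3.35 ± 0.51; edgeR adjusted p = 6.91e-08), Rora (-2.82), Dlk1 (-2.21), Vgf (-2.08), Caprin2 (-1.35), Sst (-1.12) and Scg2 (-0.74), with Rasa4 (-3.61), Galntl6 (-3.31), Thbs3 (-2.67), Spaca6 (-2.38) and Rps6ka5 (-2.28). Sst turned to 1.37 with a 2% gate and to 0.16 with only the nuclei that had Sim1 or Otp, where Vgf had -0.79 (edgeR adjusted p = 0.21), Dlk1 -0.84 (edgeR adjusted p = 0.057) and Scg2 -0.21 (edgeR adjusted p = 0.824), and none of these passed. Rasa4, Thbs3 and Rps6ka5 had 0, 4 and 3 UMIs in oxytocin-type and 7, 4 and 5 in vasopressin-type nuclei of Sham 2. That library thus adds little to their direction. Rora stood at 50.2 and 108 CPM against 717 and 175, so most of its difference was in DOCA-salt 2, where 82 of 96 vasopressin-type nuclei had neither Sim1 nor Otp. Caprin2 stood at 107 and 54.2 CPM against 147 and 396, so most of its difference was in Sham 2.

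Higher in the oxytocin type were Pld5 (2.54), the LIM-domain factor Lmo4 (2.26), the histamine receptor Hrh3 (1.95), Brinp1 (1.73), Fxyd7 (1.64), Slc12a5 (1.40) and Spock1 (1.22). Lmo4, Hrh3, Brinp1 and Fxyd7 had 0, 3, 2 and 5 UMIs in the vasopressin-type nuclei of Sham 2. Fxyd7 stood at 75.9 CPM in oxytocin-type and 58.2 CPM in vasopressin-type nuclei there. Few UMIs thus stand behind these differences in Sham 2. Slc12a5 stood at 349 and 233 CPM in oxytocin-type against 139.6 and 69.9 in vasopressin-type nuclei (edgeR adjusted p = 0.000245), and the types did not overlap. Hbb-bs, a hemoglobin gene of blood cells, was also called higher (1.97), at 129 and 266 CPM against 27.1 and 81.5. DESeq2 called 0 of these genes, with 23 at an unadjusted p under 0.05, and edgeR without the library block called 0, with 168. Without the nuclei of highest doublet score edgeR called 0 as well, with 305 at an unadjusted p under 0.05. With only the nuclei that had Sim1 or Otp, 11 genes passed, among them Caprin2 (-2.28; edgeR adjusted p = 1.15e-08) and Pdyn (-1.89; edgeR adjusted p = 0.0023), both higher in the vasopressin type. Of these 11, 7 were among the 47 calls over all nuclei of the types. Of the genes named above for the types, only Caprin2 and Hbb-bs kept their call. All the others, on both sides, lost it or were not among the 2294 genes tested there. Over all nuclei of the 2 types Pdyn had -1.02 and did not pass (edgeR adjusted p = 0.212).

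The treatment comparison had DOCA-salt 2 alone in its DOCA-salt arm, against Sham 1 and Sham 2, so that the lone library was assumed to vary like the Sham libraries and DOCA-salt and that library cannot be told apart. Of 7410 genes tested by edgeR, 83 passed (1.12%), with 22 higher (0.297%) and 61 lower (0.823%). Of the genes of hormone production, Vgf was higher by 1.66 ± 0.30 (edgeR adjusted p = 2.59e-05) and the other 18 genes of prohormone processing were not called. Vgf stood at 615 CPM against 181 and 192, but in oxytocin-type nuclei alone at 240.1 against 181 and 152, with a log2 fold change of 0.58 ± 0.39 (edgeR adjusted p = 0.589). Otp was higher by 1.21 ± 0.35 (edgeR adjusted p = 0.0421) and, in oxytocin-type nuclei alone, by 2.03 ± 0.41 (edgeR adjusted p = 0.000498). None of the 15 tested genes of secretory load, the 9 of the salt response and the 5 of corticosteroid receptors and targets passed in edgeR or DESeq2, and of these 29 Creb3l2 and Herpud1 had an unadjusted p under 0.05 in edgeR.

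Several of the largest differences were in peptide precursors made by other neurons. Pmch stood at 743 CPM in the Oxt/Avp nuclei of DOCA-salt 2, 0 in Sham 1 and 12.8 in Sham 2 (log2 fold change 5.93 ± 0.48; edgeR adjusted p = 3.41e-31), and at 1212, 119 and 12.7 CPM in the oligodendrocytes of these libraries, on 2 UMIs in the 7 oligodendrocytes of Sham 1. Agrp, Npy and Pomc, precursors made by ARC neurons, were lower (log2 fold changes -5.72, -5.70 and -3.04), and they were lower in the oligodendrocytes of DOCA-salt 2 than of Sham 2 as well (2.93 and 38.2 CPM for Agrp, 13.2 and 115 for Npy, 26.4 and 388 for Pomc). Of 5 oligodendrocyte markers, 3 were called lower and 0 had a fold change above 0 (median -1.32). Cldn11 (-1.49) and Mbp (-1.32) were lower, with Mbp at 352 CPM in the nuclei of DOCA-salt 2 and at 907 and 869 in those of Sham 1 and Sham 2, and Mog was at 0 in Sham 1. Bc1 and Gm42418, abundant noncoding RNAs, were lower (-4.06 and -4.09), at 250.4, 3415 and 4792 CPM for Bc1 in Oxt/Avp nuclei, 305, 2219.7 and 3039.6 in other neurons and 415, 1779 and 4068 in oligodendrocytes. For these genes the order of DOCA-salt 2 and Sham 2 was the same in all 3 classes of nuclei, except that Cldn11 stood at 62.4 and 59.8 CPM in other neurons and at 1575 and 1233 CPM in oligodendrocytes. The part of free RNA in the result was not tested. DESeq2 called 3 genes, Bc1, Gm42418 and Pmch, with 35 at an unadjusted p under 0.05, and edgeR on only the Oxt/Avp nuclei that were neurons by Snap25 plus Syt1 called 0, with 479.

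Beyond these, the called genes of largest change were Grin2c (3.22), Slc24a5 (2.96), Tesc (2.76) and Glmn (2.48), each with 0 UMIs in Sham 1, which allows up to 90.7 CPM there, above their levels in DOCA-salt 2. Slc24a5, an ion exchanger, stood at 71.5 CPM in DOCA-salt 2 and 9.62 in Sham 2. Grin2c, a glutamate receptor subunit, stood at 58.3 and 6.42 CPM. Cacna1a, a calcium channel, was called lower (-1.26 ± 0.36; edgeR adjusted p = 0.0491) although the libraries overlapped, with 90.1 CPM in DOCA-salt 2 between 30.2 in Sham 1 and 250.2 in Sham 2, and without Sham 2 its log2 fold change was 1.53.

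**Figure D5:**
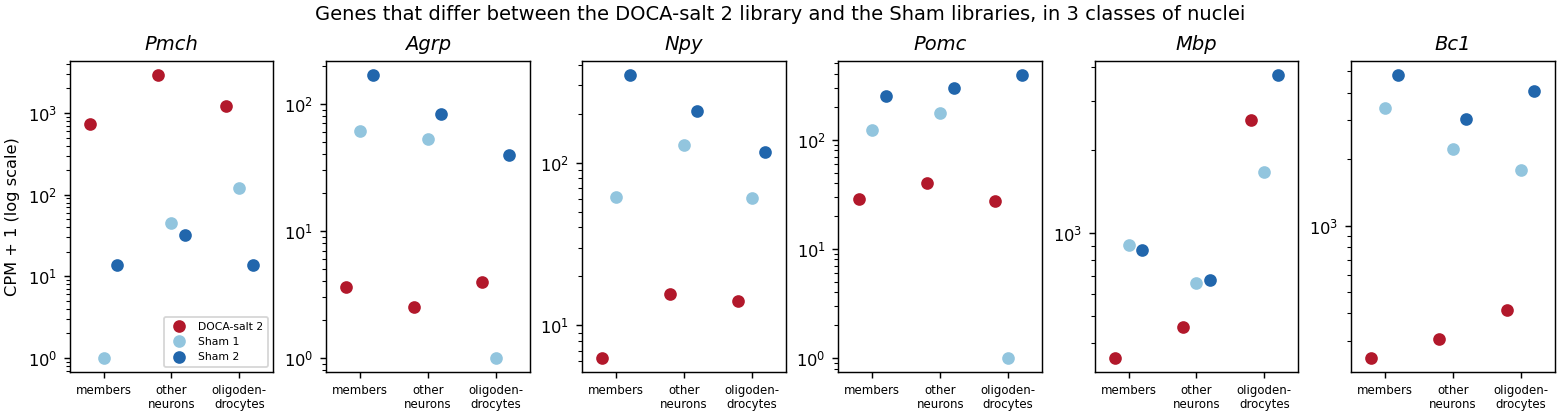
Points give the CPM plus 1 (log scale) of 6 genes in Oxt/Avp nuclei (members), other neurons and oligodendrocytes, with 1 point each for DOCA-salt 2, Sham 1 and Sham 2. Pmch is highest in DOCA-salt 2 and Agrp, Npy and Bc1 stand lower there than in Sham 2 in every class, while Mbp in oligodendrocytes is at 2568, 1660.4 and 3731 CPM.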

How the data were processed

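Nuclei were isolated from ARC punches, the nuclei of 2 mice were pooled per library, and 4 libraries were made with a droplet kit that reads the 3′ ends of transcripts. The authors deposited raw UMI counts per gene and called barcode, made with Cell Ranger 3.0.1 on mm10 per the submitters' processing notes, with no further filter. Sequences were taken from GENCODE M21 on GRCm38.

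Nuclei with 201 to 6999 genes, under 25000 UMIs and under 15% mitochondrial UMIs were kept. The selection of nuclei and the gene lists were chosen with earlier results of these data known. Counts were summed per library and class, the 9 gate genes were taken out, and sums were tested with edgeR 4.0.16 (R 4.3.3) by quasi-likelihood with TMM normalization, the low-count filter filterByExpr and a Benjamini-Hochberg adjusted p of 0.05. Comparisons within libraries had the library as a block and needed at least 5 nuclei per class. SE is the absolute log2 fold change divided by the square root of F. CPM are counts per 1e6 UMIs outside the gate genes and are not length-scaled, so they are compared between classes and not between genes. Poisson and exact binomial intervals (95%) and the limit for a count of 0 (3 UMIs) cover counting error only. Depth was a median of 1329, 2326, 3938 and 3071.5 UMIs per Oxt/Avp nucleus in DOCA-salt 1, DOCA-salt 2, Sham 1 and Sham 2, against 3332, 3131, 8366 and 4584.5 in other neurons. Doublets were scored with Scrublet (scanpy 1.11.5). Its automatic threshold marked 0, 0, 2 and 0 nuclei and so did not work, and the nuclei with the highest scores (0.8% per 1000 nuclei) were taken out in an alternative only. DESeq2 1.42.0 was an alternative test. The code was tested on simulated data.

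Named genes were those of the 22 lists, the 10 called genes of largest rise and 5 of largest fall against other neurons, the 8 each way between types and against Sim1 neurons (all with levels on the same side in every library, which in Sham 1 often meant 0 or 1 UMI and then gave no direction), and up to 5 each way between treatments whose libraries did not overlap. 1 item is not reported here.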

Additional observations from a re-analysis of the deposited data

Results flagged for a closer look

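Ccdc153, a gene of ependymal cells, was called higher in the Oxt/Avp nuclei than in other neurons (log2 fold change 1.85; edgeR adjusted p = 0.0187), but only DOCA-salt 2 had any UMIs of it in these nuclei. It stood at 22.5 CPM against 5.23 in DOCA-salt 2, and at 0 against 0.473 in Sham 1 and 0 against 1.75 in Sham 2. A count of 0 allows up to 90.7 CPM in Sham 1 and 9.62 CPM in Sham 2, so these give no direction, and whether the libraries differ was not tested. The tanycyte and ependymal markers summed to 47.7, 30.2 and 22.5 CPM in the Oxt/Avp nuclei of DOCA-salt 2, Sham 1 and Sham 2.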

How the results depend on the processing

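Of 1617 values for 124 named genes under the alternatives, 991 kept their direction and call, 564 lost the call, 53 were values without a test that moved and 9 reversed. Calls against other neurons (187) were 14 with DESeq2, 12 with no library block, 117 with a 5% gate and 79 for oxytocin-type nuclei only, and from 17 to 261 with a library left out. Calls against Sim1 neurons (214) were 8 with DESeq2, 8 with no library block, 77 with a 5% gate and 101 for oxytocin-type nuclei only, and from 17 to 325 with a library left out. Calls between types (47) were 0 with DESeq2, 0 with no library block, 28 with a 2% gate, 0 without the highest doublet scores and 11 with Sim1 or Otp detected. Calls between treatments (83) were 12 with no low-count filter, 3 with DESeq2, 42 with a 2% gate, 38 without the highest doublet scores, 0 with neurons by Snap25 plus Syt1 only and 17 with sums thinned to the smallest. The cause was not tested, except that thinning and the gates left fewer genes or nuclei. The choices of oxytocin-type, vasopressin-type or Snap25 plus Syt1 nuclei only, and of other neurons without suprachiasmatic genes, were made after the data were seen.

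Reversed log2 fold changes were, against other neurons, Vgf (-0.30 with a 5% gate and -0.20 in oxytocin-type nuclei), Rasd1 (-0.27 in oxytocin-type nuclei) and Reln (-0.40 in vasopressin-type nuclei), against Sim1 neurons Pmch (0.65 without DOCA-salt 2, and -1.32 at the lowest with a library left out) and Npy (-1.29 without Sham 2, and 1.25 at the highest), between types Sst (1.37 with a 2% gate and 0.16 with Sim1 or Otp detected), and between treatments Cacna1a (1.53 without Sham 2 and -1.50 without Sham 1).

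The difference in oxytocin-type share kept its sign, between -78.9 and -10.0 percentage points. No paired analysis was possible because DOCA-salt 1 was left out, so that only number 2 was in both treatments. Leaving out a library between types or treatments, the 5% gate there and Sim1 or Otp nuclei between treatments left no residual degrees of freedom and gave fold changes only. The treatment comparison without DOCA-salt 2 could not be run. Depth limits Sham 1 most, where its 7 nuclei put the limit for 0 counts at 90.7 CPM.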
